A study of Homo sapiens with 6 samples.

Results

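The genes described are 10 members of the retinoblastoma (RB) pathway: the pocket protein genes RB1, RBL1 and RBL2, the transcription factor genes E2F1 and E2F3, the cyclin and kinase genes CCND1, CDK4 and CDK6, and the inhibitor genes CDKN1A and CDKN1B. They were chosen by name, and each was represented by 1 hg19 transcription start site (TSS). Accessibility was read as listed ATAC-seq peaks within 2 kb and then within 100 kb of that TSS. Of 21031 accessible regions in the series, 37 lay within 100 kb of the 10 start sites and 8 lay within 2 kb.

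ATAC-seq uses a transposase to cut and tag open chromatin, and clusters of cuts are called as peaks. It was run on LNCaP, an established androgen-sensitive prostate cancer cell line, that carried either the control hairpin shCON or shRB, which targets RB. The 3 groups of 2 libraries were shCON CDT, control cells kept for 72 hours in hormone-deficient CDT, shCON DHT, control cells with the same 72 hours and then 3 hours of the androgen dihydrotestosterone, and shRB CDT, RB-depleted cells kept for 72 hours in CDT. All groups thus come from 1 cell line, all were hormone-deprived, and no shRB cells received DHT. The libraries of a group were combined by the authors into 1 peak list, of 12096 peaks for shCON CDT, 12896 for shCON DHT and 14788 for shRB CDT. The spread between replicates therefore cannot be seen, and differences between lists are given without p-values. The lists hold no read counts, so sequencing depth is unknown. A gene without a listed peak is not shown to be closed. Where 3 values follow each other without a label, they are in the order shCON CDT, shCON DHT and shRB CDT.

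In the textbook pathway, hypophosphorylated RB and its relatives bind E2F factors and keep genes of DNA replication silent. D-type cyclins with CDK4 or CDK6 phosphorylate the pocket proteins and release E2F, while p21 (CDKN1A) and p27 (CDKN1B) restrain cyclin-dependent kinases. E2F factors also act on promoters of the pathway itself, E2F1 among them, so that the loop feeds on its own output. In prostate cancer the pathway is known for the loss of RB in advanced, castration-resistant disease.

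Promoter sequences of 5 members are shown for their E2F-type letters, since E2F factors act on promoters of the pathway. RefSeq windows of GRCh38.p14, from 250 bases before to 50 bases after a gene start, were used for 8 of the 10 genes and gave 11 windows. None was used for CCND1. The single RB1 window was left out because it lies at an internal start, 172699 bases from the outer start of the gene, and it holds no match to any motif searched here. The CDKN1A window, 2251 bases from the outer start of its gene, was kept. The E2F-type motif was searched on both strands as TTTCGCGC, TTTGGCGC, TTTCCCGC and TTTGCCGC. It was found in 3 of the 11 windows, those of RBL1, E2F1 and E2F3, or 3 of 12 with the RB1 window, against 3.31% of all 35116 windows, which also include windows of non-coding genes. These 3 are shown with the E2F-type matches in capitals. The windows of CDKN1B, which had a top-scoring peak in every list, and of CDKN1A, which had no peak at its start in any list, are shown for contrast and hold no E2F-type match. All are printed 5′ to 3′ on the gene's strand: E2F1 from chr20:33686336-33686635 (minus strand), RBL1 from chr20:37095948-37096247 (minus), E2F3 from chr6:20401629-20401928 (plus), CDKN1B from chr12:12717118-12717417 (plus) and CDKN1A from chr6:36678464-36678763 (plus).
E2F1: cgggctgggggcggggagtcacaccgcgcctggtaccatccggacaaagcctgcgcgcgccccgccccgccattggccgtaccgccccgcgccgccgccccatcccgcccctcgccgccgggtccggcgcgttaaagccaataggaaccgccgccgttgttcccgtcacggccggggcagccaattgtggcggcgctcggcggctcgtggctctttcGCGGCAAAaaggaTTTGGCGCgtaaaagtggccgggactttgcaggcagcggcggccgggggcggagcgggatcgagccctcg
RBL1: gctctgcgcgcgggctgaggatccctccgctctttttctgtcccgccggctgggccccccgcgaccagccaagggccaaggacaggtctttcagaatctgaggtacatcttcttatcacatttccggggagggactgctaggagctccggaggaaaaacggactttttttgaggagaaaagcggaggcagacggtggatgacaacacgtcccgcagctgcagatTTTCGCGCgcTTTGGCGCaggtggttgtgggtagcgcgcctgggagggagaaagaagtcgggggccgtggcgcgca
E2F3: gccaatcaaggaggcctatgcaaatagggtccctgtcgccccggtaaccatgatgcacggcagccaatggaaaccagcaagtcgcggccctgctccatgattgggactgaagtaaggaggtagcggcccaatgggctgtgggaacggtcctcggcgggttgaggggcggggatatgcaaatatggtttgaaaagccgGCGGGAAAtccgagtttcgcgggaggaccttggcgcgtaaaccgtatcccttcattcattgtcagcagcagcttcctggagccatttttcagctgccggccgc
CDKN1B: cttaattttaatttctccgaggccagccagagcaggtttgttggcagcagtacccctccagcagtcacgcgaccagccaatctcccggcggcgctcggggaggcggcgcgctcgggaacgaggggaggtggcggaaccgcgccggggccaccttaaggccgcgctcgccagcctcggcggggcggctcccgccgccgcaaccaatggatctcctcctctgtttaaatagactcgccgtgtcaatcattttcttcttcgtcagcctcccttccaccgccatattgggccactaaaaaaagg
CDKN1A: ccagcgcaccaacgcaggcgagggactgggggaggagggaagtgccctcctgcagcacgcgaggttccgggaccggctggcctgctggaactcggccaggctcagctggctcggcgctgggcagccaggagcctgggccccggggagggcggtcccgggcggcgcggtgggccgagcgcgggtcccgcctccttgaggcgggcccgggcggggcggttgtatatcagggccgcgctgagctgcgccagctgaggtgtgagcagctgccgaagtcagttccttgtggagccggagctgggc

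In E2F1 a reverse-strand match began 33 bases before the gene start and a forward match 20 bases before it. The RBL1 matches began 26 and 16 bases before the start, both on the forward strand. The single E2F3 match, on the reverse strand, began 53 bases before the start. Windows with at least 2 such matches, as in E2F1 and RBL1, made up 0.145% of all windows. GC boxes (GGGCGG, either strand) occurred in 8 of the 11 windows against 45.0% of all, and CCAAT boxes (CCAAT, either strand) in 4 of 11 against 34.6%. The cell cycle element CHR (TTTGAA or TTCGAA) occurred in 2 of 11 against 16.4%. The full palindromic androgen response element, with a free spacer of 3 bases, had no match in the 11 windows and 1 among all windows. These matches are letters in GRCh38 windows and were not placed inside the hg19 peaks by position.

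At the start sites, 7 of the 10 genes had a listed peak within 2 kb in shCON CDT, and 6 did in each of the other lists. RB1, E2F1, E2F3, CDK4 and CDKN1B had one in every list. RBL1 had one in both CDT lists and none in shCON DHT, and CDK6 had one in both shCON lists and none in shRB CDT. RBL2, CCND1 and CDKN1A had none in any list. Of the 8 regions within 2 kb, 6 carried a peak in all 3 lists, where 34.0% of all 21031 regions did. E2F3 accounts for 2 of these 8 regions. The 34.0% is over regions at any place in the genome and is not a share for start sites. Between 2 kb and 100 kb of the 10 start sites, 12 of 29 regions (41.4%) were in all 3 lists. The outermost peak inside the 2 kb limit lay 1188 bp from its TSS (E2F3, shCON DHT), and the first one outside lay at 2055 bp (CDK4, shRB CDT).

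**Figure D1:**
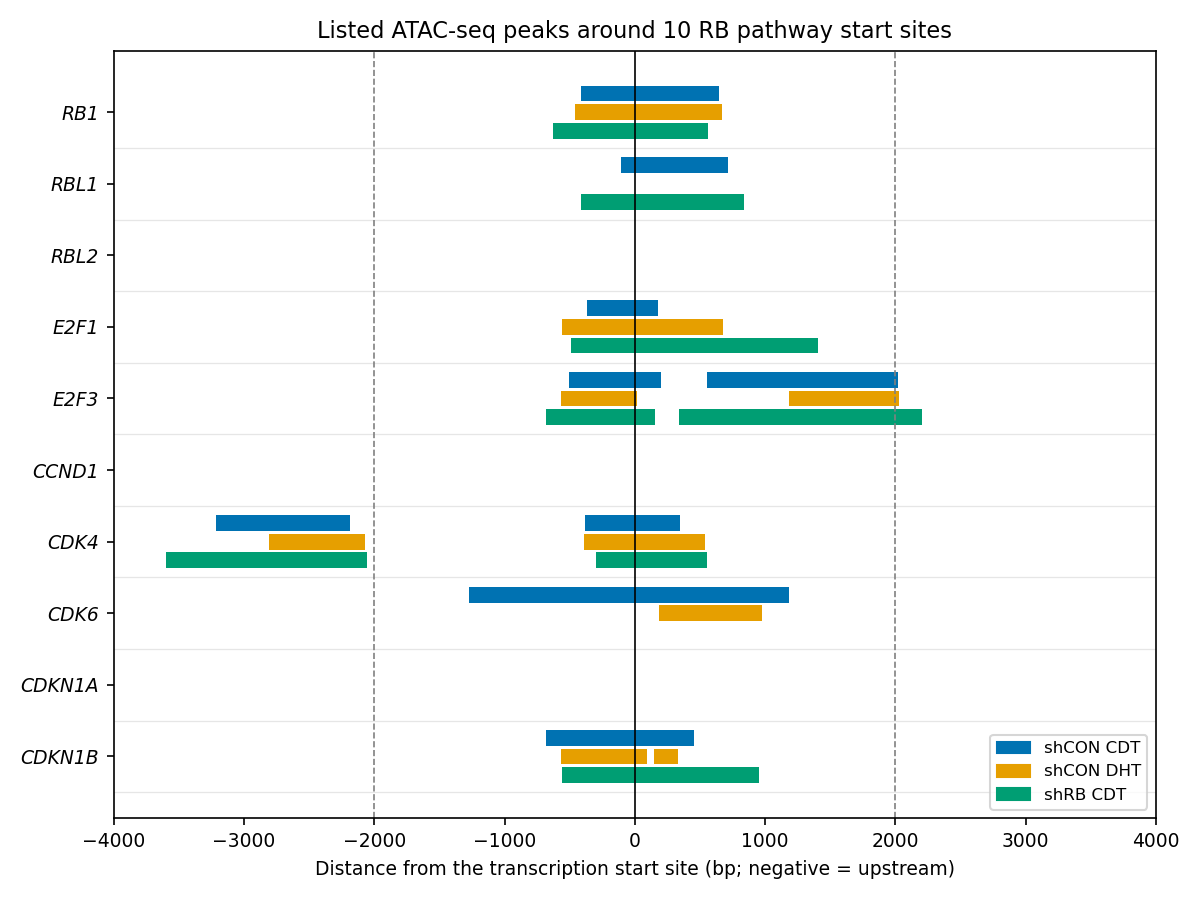
Listed peaks (bars) of shCON CDT, shCON DHT and shRB CDT around the start sites of the 10 genes. The x axis is the distance from the TSS in bp, negative upstream on the gene's strand, and dashed lines mark 2 kb. RBL2, CCND1 and CDKN1A carry no bar, RBL1 lacks the shCON DHT bar, CDK6 lacks the shRB CDT bar, and the E2F1 bar reaches farthest downstream in shRB CDT.

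The pocket protein genes differed among themselves. RB1, which encodes the target of the hairpin, had 1 peak over its TSS at chr13:48877883 in each list. A hairpin acts on the transcript, so these peaks do not check the knockdown. The RB1 peak was 1055 bp (shCON CDT), 1127 bp (shCON DHT) and 1192 bp (shRB CDT) wide. Its deposited score, a whole number from 413 to 1000 that is capped at 1000, was 465, 886 and 940 in that order. Within its own list the peak outranked 12.2% (shCON CDT), 66.2% (shCON DHT) and 61.2% (shRB CDT) of peaks. It was thus a low-ranking peak in the shCON CDT list and an upper-middle one in both others, although ranks in lists of different length are no measure of change.

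RBL1, the gene for the RB relative p107, had a peak over its TSS at chr20:35724410 in the CDT lists. This peak was 820 bp wide with a score of 561 in shCON CDT and 1251 bp wide with a score of 715 in shRB CDT. It reached 104 bp upstream and 715 bp downstream of the TSS in shCON CDT, and 414 bp and 836 bp in shRB CDT. The wider peak extended the shCON CDT peak on both sides. In shCON DHT the nearest peak to the RBL1 TSS lay 82.8 kb away. The shCON CDT peak outranked 28.5% of its list. In the lowest 25% of that list by score, which does not include this peak, 71.3% of peaks had no counterpart in shCON DHT. Of all shCON CDT regions, 34.4% had none. The RBL1 start region was in both CDT lists. Over the series, at any score, 1400 regions were in both CDT lists only, against 7149 in all 3 lists.

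RBL2, the gene for the relative p130, had no peak near its TSS at chr16:53468351 in any list. Its nearest peaks were 68.1 kb (shCON CDT), 68.2 kb (shCON DHT) and 60.7 kb (shRB CDT) away. The peak near 68 kb had a score of 1000 in all 3 lists, with widths of 1367, 1203 and 1392 bp. Going up the chromosome, AKTIP is the next protein-coding gene after RBL2 in RefSeq's GRCh38 order, and the peak was not assigned to either gene.

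Of the E2F genes, E2F1 encodes the best known activator of the family. Its peak covered the TSS at chr20:32274210 in each list and was 547 bp (shCON CDT), 1240 bp (shCON DHT) and 1897 bp (shRB CDT) wide. The upstream reach was similar, at 369, 561 and 490 bp. The downstream reach, into the gene, was 177 bp (shCON CDT), 678 bp (shCON DHT) and 1406 bp (shRB CDT). The narrowest of these peaks had the top score of 1000, while those of shCON DHT and shRB CDT scored 968 and 976. The E2F-type matches printed above lie in the RefSeq window just before the gene start.

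The width ratio of shRB CDT to shCON CDT at the E2F1 start was 3.47. Over all 6240 sites where each list has exactly 1 peak, the median ratio was 1.04, the 5th and 95th percentiles were 0.694 and 1.76, and 23 sites, E2F1 included, had a ratio at least this large. The shCON DHT peak was 2.27 times as wide as that of shCON CDT, where the median over the 6240 sites was 0.896 and 47 sites had a ratio at least as large. Both ratios have the same narrow shCON CDT peak as denominator, so they are not separate observations. That peak was wider than only 18.1% of the peaks in its list, whereas the shRB CDT peak was wider than 96.7% of its own. Without replicate lists the spread of such a width is not known.

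E2F3, which encodes a second activating E2F, had a pair of peaks in every list. The first covered the TSS at chr6:20402137, scored 1000 throughout and was 711 bp (shCON CDT), 589 bp (shCON DHT) and 843 bp (shRB CDT) wide. A further peak began 556, 1188 and 343 bp downstream of the TSS in the same order of lists. It ended 2017, 2026 and 2203 bp downstream, so its ends differed less than its beginnings. Its width was thus 1462, 839 and 1861 bp, and its score was 1000, 642 and 1000. RefSeq lists a pair of E2F3 starts 1735 bases apart in GRCh38, and a transcript from an internal start is known as E2F3b. Positions were not converted between the builds.

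Among the kinase genes, CDK4 had a peak over its TSS at chr12:58146230 that was 736 bp (shCON CDT), 924 bp (shCON DHT) and 850 bp (shRB CDT) wide. Scores were 679, 1000 and 1000. A neighbouring peak just beyond the 2 kb limit, 2186, 2073 and 2055 bp upstream, was 1032, 734 and 1543 bp wide with scores of 1000, 621 and 654. The top score was thus reached at the TSS in shCON DHT and shRB CDT, and at the upstream neighbour in shCON CDT. How scores compare between lists is not known. On that side MARCHF9 is the next protein-coding gene in RefSeq's GRCh38 order. The neighbouring peak was not assigned to either gene.

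CDK6, the gene of the other D-cyclin kinase, showed the widest peak of any start site and the fewest peaks. The shCON CDT peak spanned 2458 bp, from 1276 bp upstream to 1181 bp downstream of the TSS at chr7:92463231, and was wider than 99.8% of its list. Its score was only 502. In shCON DHT a peak of 797 bp with a score of 445 began 183 bp downstream of the TSS and did not reach it. RefSeq lists CDK6 starts 2614 bases apart in GRCh38, and distances here are from the given hg19 TSS alone. In shRB CDT no peak lay within 100 kb, and the nearest was 243 kb away. Both shCON peaks ranked low, above 19.3% and 9.43% of their lists. In the lowest 25% of shCON CDT by score, 61.7% of peaks had no counterpart in shRB CDT, and in that of shCON DHT 67.7% had none. These rates take each list by itself, whereas the CDK6 start region was in both shCON lists. Over the series, at any score, 565 regions were in both shCON lists only, against 7149 in all 3 lists.

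CCND1, the gene for cyclin D1, had no peak near its TSS at chr11:69455873 in any list. The nearest one, the same site each time, lay 33.5 kb (shCON CDT), 33.4 kb (shCON DHT) and 33.5 kb (shRB CDT) away, with widths of 1148, 1144 and 1298 bp and scores of 589, 676 and 919.

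The inhibitor genes contrasted. CDKN1B had top-scoring peaks over its TSS at chr12:12870302 in every list. The peak was 1141 bp wide in shCON CDT and 1513 bp in shRB CDT. In shCON DHT the same stretch was listed as a peak of 659 bp over the TSS and one of 180 bp that began 149 bp downstream, both with a score of 1000. The downstream reach was 457 bp (shCON CDT), 328 bp (shCON DHT) and 951 bp (shRB CDT). CDKN1A, whose transcription p53 activates, had no peak at its TSS at chr6:36646459 in any list. Its nearest peak in shCON CDT, 222 bp wide with a score of 530, lay 25.3 kb away and was in no other list. The nearest peaks in shCON DHT and shRB CDT were both 84.0 kb away.

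Of the sites within 2 kb of a TSS, 5 had exactly 1 peak in each list. At all 5 the shRB CDT peak was wider than that of shCON CDT. E2F3 gave 2 of the 5, and its further peak did not cover the TSS. The CDK6 start did not qualify, having a peak of 2458 bp in shCON CDT and none in shRB CDT. The RBL1 and CDKN1B starts, both wider in shRB CDT than in shCON CDT, did not qualify either. The ratios were 1.13 at RB1, 1.15 at CDK4, 1.19 and 1.27 at the E2F3 sites and 3.47 at E2F1. Over all 6240 sites with exactly 1 peak in each list, 57.5% were wider in shRB CDT. These sites lie at any place in the genome, so this is not a share for start sites. Compared with shCON CDT, the shCON DHT peak was wider at 3 of 5, with ratios of 0.574 and 0.828 at E2F3, 1.07 at RB1, 1.26 at CDK4 and 2.27 at E2F1, against 33.4% of all sites. Both comparisons share the shCON CDT list. With the regions farther out, 17 sites near these genes qualified, with median ratios of 1.13 for shRB CDT and 0.997 for shCON DHT. A second site in the E2F1 window, 18.5 to 19.2 kb downstream of the TSS, was also narrower in shCON CDT than in the other lists. It was 654, 1288 and 1483 bp wide, with scores of 1000, 501 and 821. The third site in this window, about 45 kb upstream of the TSS, had nearly equal widths of 1270, 1317 and 1318 bp. In RefSeq's GRCh38 order the next protein-coding gene is ACTL10 on the downstream side of E2F1 and PXMP4 on the upstream side. Neither site was assigned to a gene.

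**Figure D2:**
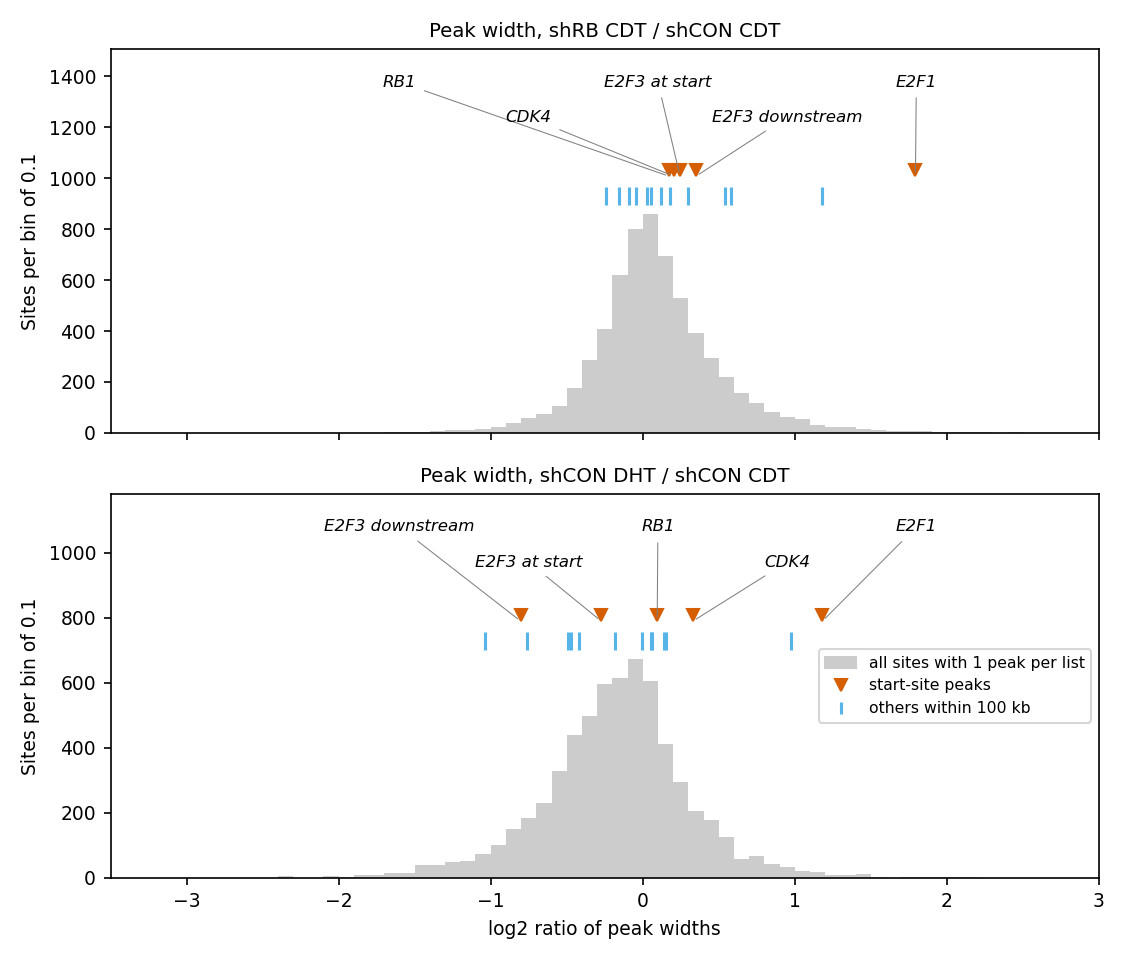
Distribution of the log2 ratio of peak widths over the 6240 sites where each list has exactly 1 peak (grey bars, number of sites per bin of 0.1), for shRB CDT over shCON CDT (top) and shCON DHT over shCON CDT (bottom). Orange triangles mark the 5 sites within 2 kb of a TSS, E2F3 giving 2 of them, and blue ticks the 12 other sites within 100 kb. The E2F1 start lies in the upper tail of both distributions, at ratios of 3.47 and 2.27, below the highest ratios of 6.34 and 4.48.

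Within 100 kb of the start sites there were 29 peaks (shCON CDT), 24 (shCON DHT) and 27 (shRB CDT). That was 0.240%, 0.186% and 0.183% of each list. The windows cover 2 Mb and held 14.5, 12.0 and 13.5 peaks per Mb, where the lists as a whole held 3.91, 4.17 and 4.78. The density around these genes was above the genome's in each list, but no hg19 annotation was at hand to compare them with other genes. CDK4 had the most peaks, with 8, 6 and 7 in the same order of lists. E2F1 had 3, 3 and 5, and CDKN1B had 3, 5 and 3. CDK6 had 2, 1 and 0, and was the only one of the 10 without a peak within 100 kb in a list. The last peak inside the 100 kb limit lay at 95.8 kb (CDKN1B, shCON CDT) and the first beyond it at 104.8 kb (CDKN1B, shRB CDT).

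**Figure D3:**
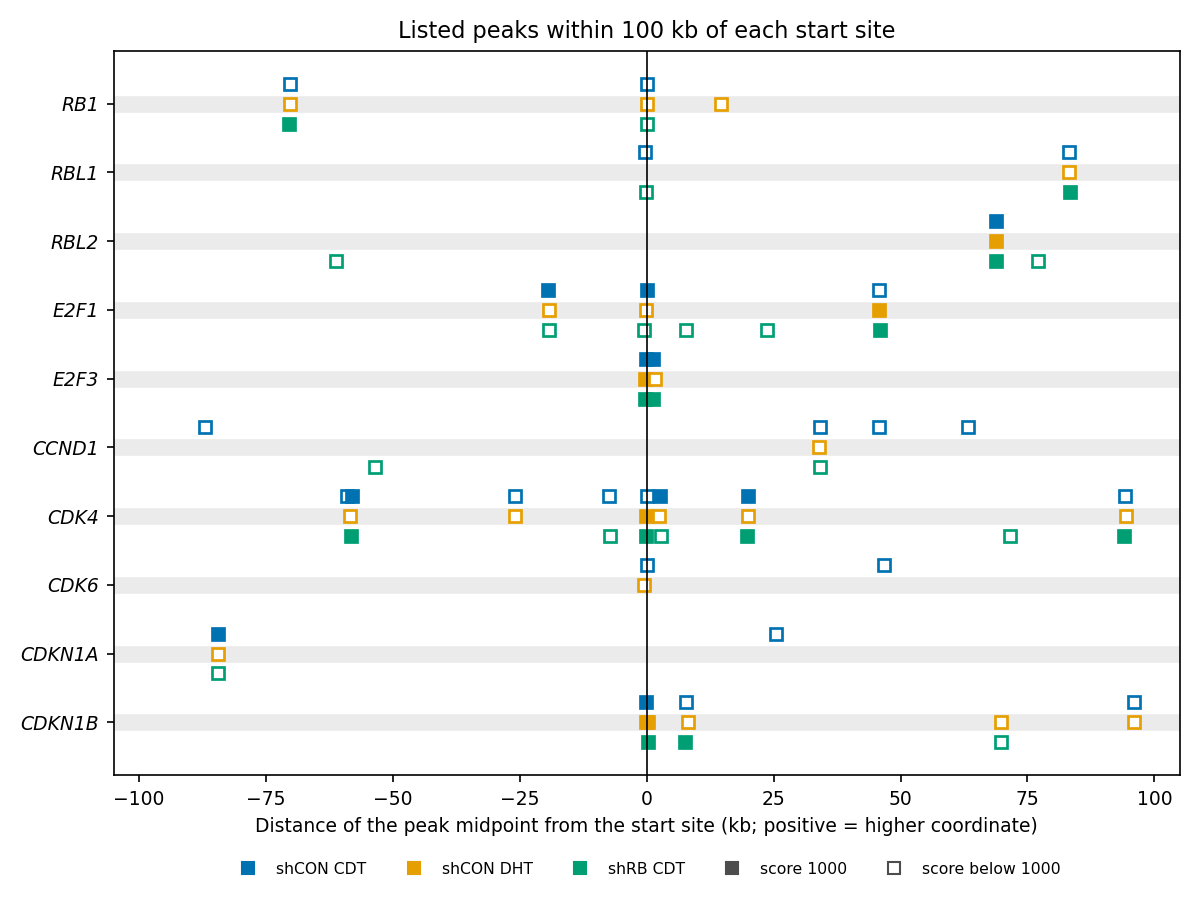
Midpoints of the listed peaks within 100 kb of each start site, in kb from the TSS and positive toward higher coordinates, for shCON CDT, shCON DHT and shRB CDT (rows within each gene, top to bottom). Filled squares are peaks at the score of 1000. Columns of 3 squares are sites in every list, and single open squares, as around CCND1 and E2F1, are low-scoring sites of 1 list.

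Joined over the lists, these peaks formed 37 regions. Of them 18 (48.6%, exact 95% binomial interval 31.9 to 65.6) were in all 3 lists, against 34.0% of all regions. Another 6 were unique to shCON CDT, 6 to shRB CDT and 1 to shCON DHT, where these classes made up 12.6%, 22.5% and 15.7% of all regions. In exactly 2 lists were 3 regions of both shCON lists (2.69% of all regions), 2 of both CDT lists (6.66%) and 1 of shCON DHT and shRB CDT (5.90%). The intervals cover counting error only, and neighbouring peaks are not independent.

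**Figure D4:**
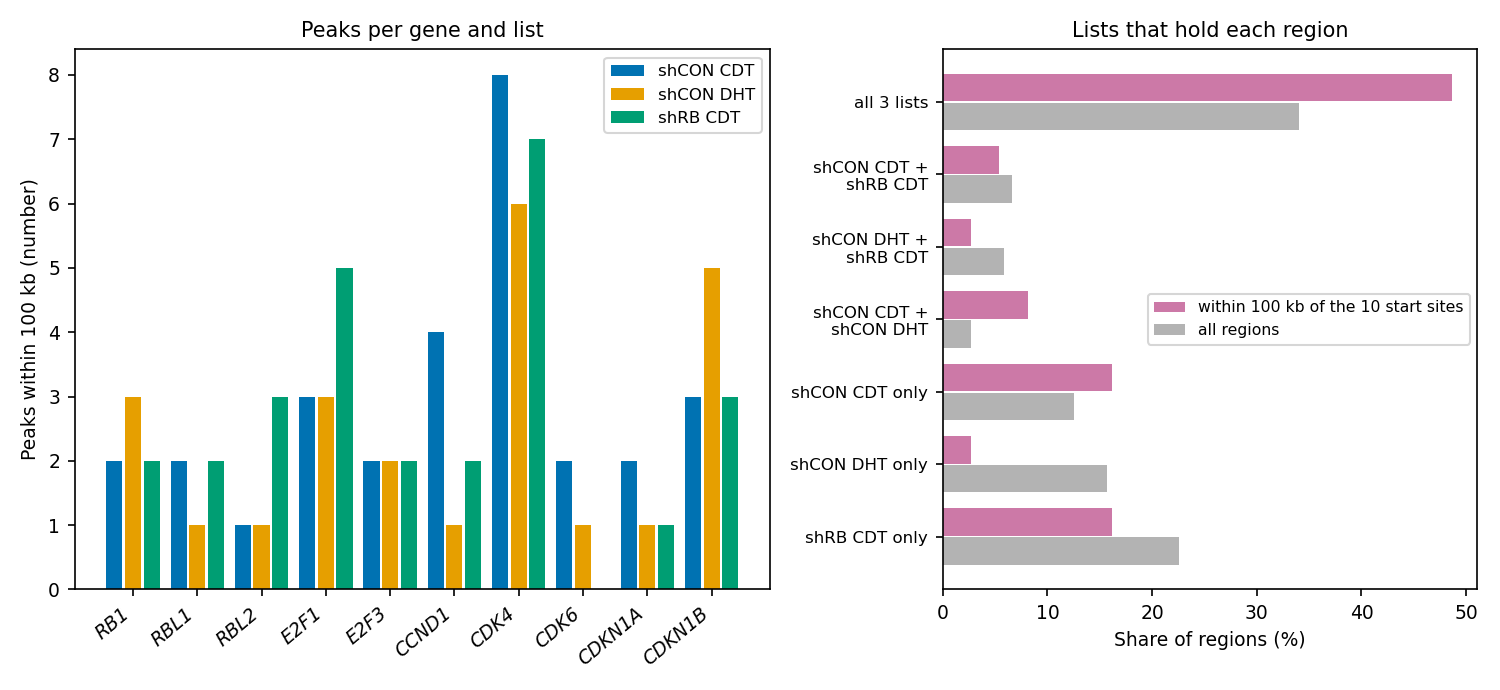
Left, number of listed peaks within 100 kb of each start site in shCON CDT, shCON DHT and shRB CDT. Right, share of regions by the lists that hold them, for the 37 regions near the 10 genes and for all 21031 regions. CDK4 has 6 to 8 peaks per list and CDK6 has none in shRB CDT, and 18 of the 37 regions are in all 3 lists.

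Regions in every list and regions missing from one separated by score. The 18 common regions each reached a score of at least 919 in some list, and 16 of them reached 1000. The 19 regions missing from at least 1 list peaked between 455 and 729, and none reached 1000. Over the whole series 5.26% of the regions missing from a list and 76.0% of the common ones reached 1000. A common region has more peaks from which its highest score is taken, which favours this order. No region near these genes with a top-scoring peak was missing from another list. Peaks at the score of 1000 numbered 10 of 29 near the genes in shCON CDT, 6 of 24 for shCON DHT and 12 of 27 for shRB CDT, where such peaks were 32.5%, 27.0% and 35.1% of the lists.

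For RB depletion, 7 of the 27 shRB CDT regions near the genes (25.9%, 11.1 to 46.3) had no peak in shCON CDT, against 41.2% of all shRB CDT regions. They comprised 2 each near E2F1 and RBL2 and 1 each near CCND1, CDK4 and CDKN1B, and none was at a start site. The E2F1 pair lay upstream of the gene, 7.34 kb away with a score of 544 and a width of 799 bp (chr20:32281547-32282345), and 23.4 kb away with a score of 500. Both were in shRB CDT alone. At RBL2 the shRB CDT sites lay 60.7 kb upstream (score 463) and 76.7 kb downstream (chr16:53545095-53545792, score 615). CDK4 had a shRB CDT site 71.3 kb away (chr12:58217507-58217934) with a score of 688, the highest among the sites of this list alone. The CCND1 site, at chr11:69401967-69402690 and a score of 531, was 53.2 kb toward lower coordinates.

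In the other direction, 9 of the 29 shCON CDT regions (31.0%, 15.3 to 50.8) had no peak in shRB CDT, against 27.3% of all shCON CDT regions. They were 3 near CCND1, 2 near CDK4, both regions near CDK6, 1 near CDKN1A and 1 near CDKN1B. The CDK6 start was the only one at a TSS. The other CDK6 site, chr7:92509456-92510643, was in shCON CDT only, 46.2 kb upstream of the TSS, with a score of 494. The CCND1 sites lay 86.7 kb toward lower coordinates and 45.3 and 62.6 kb toward higher ones, with scores of 472, 455 and 566, and were also in shCON CDT alone. The widest of them was at chr11:69518475-69519952. One of the CDK4 sites, 25.6 kb downstream of the TSS in shCON CDT, was in both shCON lists with scores of 544 and 515. The CDKN1B site, 95.7 to 95.8 kb downstream, was likewise in both shCON lists, with scores of 508 and 475. Between these lists, the E2F1 and RBL2 windows thus had unshared peaks on the shRB CDT side, the CDK6 and CDKN1A windows on the shCON CDT side, and those of CCND1, CDK4 and CDKN1B on both. The RB1, RBL1 and E2F3 windows had none.

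For DHT in control cells, 2 of the 23 shCON DHT regions (8.70%, 1.07 to 28.0) had no peak in shCON CDT, against 37.0% of all shCON DHT regions. One lay 14.3 kb downstream of the RB1 TSS (chr13:48892163-48892759, 597 bp, score 627), and was the only site of shCON DHT alone. The other, 69.3 kb downstream of the CDKN1B TSS, scored 576 in shCON DHT and 575 in shRB CDT. This count depends on how peaks were joined. With a 50% reciprocal overlap there were 4 regions of shCON DHT alone and 2 of shCON DHT and shRB CDT, instead of 1 each. The 37.0% is over regions at any place in the genome. In reverse, 8 of the 29 shCON CDT regions (27.6%, 12.7 to 47.2) had no peak in shCON DHT, against 34.4% of all. They were the RBL1 start, the 3 CCND1 sites named above, 2 near CDK4, 1 near CDK6 and the CDKN1A site at 25.3 kb. One of these CDK4 sites, 6.46 to 7.02 kb downstream of its TSS, was 645 bp wide in shCON CDT and 1487 bp in shRB CDT, with scores of 537 and 729. The other was a peak of 156 bp (chr12:58087137-58087292) beside a site common to all lists, and was in shCON CDT alone.

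Set beside each other, shRB CDT had 8 of 27 regions (29.6%, 13.8 to 50.2) with no shCON DHT peak, against 42.2% of all its regions. They were the RBL1 start, the pairs of sites at E2F1 and RBL2, 1 at CCND1 and 2 at CDK4. In turn 4 of 23 shCON DHT regions (17.4%, 4.95 to 38.8) had no shRB CDT peak, against 31.5% of all. These were the CDK6 start, the RB1 site at 14.3 kb and 1 site each near CDK4 and CDKN1B. Hairpin and hormone both differ between these lists, so their parts cannot be told apart.

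Sites common to all lists beyond 2 kb, which may include promoters of other genes, were few per gene. RB1 had one 69.6 to 69.9 kb upstream of its TSS, with scores of 596 (shCON CDT), 890 (shCON DHT) and 1000 (shRB CDT). RBL1 had one 82.8 to 82.9 kb upstream with scores of 855, 575 and 1000. CDKN1A had one 84.0 to 84.1 kb upstream with scores of 1000, 438 and 548. CDKN1B had one 6.61 kb downstream of its TSS for shCON CDT, 7.66 kb for shCON DHT and 6.49 kb for shRB CDT. This CDKN1B site was 2129, 1035 and 2069 bp wide, with a shCON DHT width 0.486 times that of shCON CDT. CDK4 had 4 such sites beyond 2 kb, E2F1 had 2, and RBL2 and CCND1 had 1 each, while E2F3 and CDK6 had none. In RefSeq's GRCh38 order the next protein-coding gene on the side of the common site is ITM2B for RB1, SRSF3 for CDKN1A and APOLD1 for CDKN1B. Whether these sites serve the neighbours or the pathway genes was not tested.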

How the data were processed

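Peaks came from 3 lists, 1 per group, each combining replicates 1 and 2, per the labels. Their names give an irreproducible discovery rate threshold of 0.1 and say that peaks were filtered, merged and scored. Per the submitters' processing notes, positions are hg19. Aligner, peak caller and read shift: not given in the sources used here. The deposited score per peak, as the authors computed it, was used to rank peaks within a list and to set score limits. It also gave each joined region its highest score over the lists. Scores of different lists are printed side by side, and how they compare between lists is not known. Depth is unknown. The start sites were given with the gene names. Members and lists were chosen with earlier results of these data known. Distance is from the TSS to the nearest base of a peak. Peaks overlapping by at least 1 bp across lists were joined into regions. All members were named, with every peak within 2 kb, the nearest site beyond, sites at a score of 1000 missing from a list, and each gene's highest-scoring site of 1 list. Other RB pathway genes were not analysed here, since they need an hg19 annotation. Values were computed with scipy 1.17.1, pandas 2.3.3 and numpy 2.4.6 under Python 3.11.15, and the code passed 6 of 6 checks on simulated lists. Positions count from 1. Motifs were exact matches in RefSeq windows. Alternatives were other windows, overlaps and score limits.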

Additional observations from a re-analysis of the deposited data

How the results depend on the processing

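The number of genes with a peak near the TSS (7, 6 and 6 for shCON CDT, shCON DHT and shRB CDT) was the same with windows of 1 kb and 5 kb and with lists cut by score to 12096 peaks. In the top 50% of each list it was 3, 5 and 5, since RB1, RBL1, CDK4 and CDK6 dropped out of shCON CDT, and with peaks at the score of 1000 only it was 3 in each. Peaks within 100 kb (29, 24 and 27) numbered 19, 16 and 16 within 50 kb, 50, 43 and 47 within 250 kb, 13, 13 and 16 in the top 50% and 10, 6 and 12 at the score of 1000, counts that change by construction with window and list size. The share of regions in all 3 lists (48.6%) ran from 38.1% with a 50% reciprocal overlap to 54.5% within 50 kb. With the reciprocal overlap, regions of shCON DHT only became 4 and those of shCON DHT and shRB CDT 2. Within 50 kb there were 3 regions of shCON CDT only, 2 of shRB CDT only and 0 of shCON DHT and shRB CDT. Within 250 kb there were 31 in all 3 lists, 5 in both CDT lists, 2 shared by shCON DHT and shRB CDT and 3 unique to shCON DHT. In the top 50% there were 8 in all 3 lists, 4 in shCON DHT and shRB CDT, 0 in both shCON lists, and 2, 0 and 1 unique to shCON CDT, shCON DHT and shRB CDT. In that setting, peaks of shRB CDT and shCON DHT can lose a lower-scoring shCON CDT partner to the score limit. The other 42 of 72 values stayed within 1.5 times. No paired analysis was possible because the authors merged replicates 1 and 2 before listing peaks, which also prevents leaving out a replicate.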
